A study of Mus musculus with 4 samples.

Results

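The protocadherins measured here were all gene symbols in the deposited gene list that start with Pcdh. They numbered 69 entries of 32285, under 68 symbols, because Pcdha11 stands under 2 identifiers (ENSMUSG00000007440 and ENSMUSG00000102206). The clustered genes numbered 57 entries, of which 14 belonged to the alpha cluster (Pcdha), 22 to the beta cluster (Pcdhb) and 21 to the gamma cluster, the last made up of 12 gamma A, 6 gamma B and 3 gamma C genes. The other 12 were nonclustered protocadherins (Pcdh1, 7, 8, 9, 10, 11x, 12, 15, 17, 18, 19 and 20).

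Nuclei of the hippocampus from female C57BL/6J mice, aged 8 weeks at the start, were profiled by single-nucleus RNA sequencing, which counts captured RNA molecules by their unique molecular identifiers (UMIs). The 4 groups were wild type (WT) without exercise, WT with exercise, knock-in without exercise and knock-in with exercise. The knock-in, called APPNL-G-F or NLGF in the labels, is an App allele with humanised amyloid-beta and mutations of familial Alzheimer's disease, made in the mouse gene itself, and exercise was voluntary use of a running wheel over 10 weeks. There was 1 library a group, of an unstated number of animals. The treatment protocol names a wheel for all samples, so the groups follow the sample titles.

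Protocadherins are cadherin-type adhesion proteins of the cell surface. The clustered genes lie in tandem. Each variable exon of the alpha and gamma clusters has its own promoter and is spliced to constant exons shared by the cluster, whereas each beta gene stands alone in a single exon. A neuron uses a limited set of them, whose proteins bind the same set on other membranes and serve self-recognition of dendrites and axons, and the nonclustered genes are expressed by region and cell type.

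Group values below are given in the order WT without exercise, WT with exercise, knock-in without exercise, knock-in with exercise. The libraries held 91676884, 66573909, 64158446 and 76111556 UMIs, and 10213, 6508, 9278 and 8745 nuclei were kept. Pcdh genes took 0.517%, 0.525%, 0.555% and 0.410% of all UMIs. Pairs of libraries shared between 20 and 42 cell barcodes. Nuclei were grouped into 28 clusters without any Pcdh gene among the clustering genes and named from marker genes, and a class name means that the nuclei are like that type. The classes compared were 10302 granule neurons of the dentate gyrus, 5361 CA1 and 2202 CA3 pyramidal neurons, 2505 inhibitory neurons, 5104 oligodendrocytes, 455 oligodendrocyte precursors (OPC), 899 astrocytes and 560 microglia. Both knock-in libraries stood apart in these clusters. In that with exercise, 93.4% of granule neurons lay in cluster 7, which held between 0.08% and 5.98% of those of the other 3 libraries. Its oligodendrocytes lay in cluster 2 at 94.0%. In the knock-in without exercise, 68.2% of granule neurons lay in cluster 8, against 1.42% to 19.7% in the other 3 libraries. Its oligodendrocytes lay in cluster 14 at 91.3%, against 0% to 5.22% in the others.

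The clustered genes occupy 1 stretch of mouse chromosome 18 (GRCm38), with the alpha genes between 36930184 and 37187661, the beta genes between 37264938 and 37524479 and the gamma genes between 37661793 and 37841873. In the annotation all 14 alpha genes overlapped each other on the same strand and shared a median of 53.4% of their exonic bases, mainly the constant exons at the 3′ end. The corresponding medians were 44.8% for gamma A, 44.2% for gamma B and 38.5% for gamma C. The counting is done next to the 3′ end, so how reads from shared exons were given to single alpha or gamma genes bears on each of their counts. All of them also overlap a gene on the opposite strand, and the use of strand in the counting was not given in the sources used here. The beta genes shared a median of 0% of their exonic bases. Values of single alpha and gamma genes are therefore uncertain, and the cluster sums less so.

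No nonclustered gene shared exonic bases with another Pcdh gene. They are spread over chromosomes 3, 5, 10, 14, 18 and X, and 7 of the 12 overlap a gene on the opposite strand. Their lengths differ widely. Pcdh15 (chr10:73099342-74649737, plus strand) spans 1550.4 kb and Pcdh9 (chr14:93013410-93890679, minus strand) 877 kb. Pcdh7 (chr5:57717967-58133230) spans 415 kb and Pcdh11x (chrX:120290259-120910619) 620.4 kb, whereas Pcdh17 (chr14:84443563-84539002) spans 95.4 kb, Pcdh10 (chr3:45378398-45435623) 57.2 kb and Pcdh8 (chr14:79766775-79771312) 4.54 kb.

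The 250 bases before the start of transcription are shown for 4 of the nonclustered genes that were called in the class comparisons below, chosen after their values were seen, from RefSeq on GRCm38.p6, 5′ to 3′ on the strand of the gene, with CpG dinucleotides in capitals. The windows are chr14:93890680-93890929 (minus strand) for Pcdh9, chr10:73821617-73821866 (plus) for Pcdh15, chr3:45378148-45378397 (plus) for Pcdh10 and chr14:84443313-84443562 (plus) for Pcdh17. They lie just outside the gene, except for Pcdh15, where the RefSeq start used lies inside the annotated span.
Pcdh9: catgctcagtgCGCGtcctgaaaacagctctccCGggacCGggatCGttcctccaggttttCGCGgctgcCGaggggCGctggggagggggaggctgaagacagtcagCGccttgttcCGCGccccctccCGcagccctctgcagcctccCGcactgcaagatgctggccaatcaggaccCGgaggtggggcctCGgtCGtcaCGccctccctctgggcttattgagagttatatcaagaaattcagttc
Pcdh15: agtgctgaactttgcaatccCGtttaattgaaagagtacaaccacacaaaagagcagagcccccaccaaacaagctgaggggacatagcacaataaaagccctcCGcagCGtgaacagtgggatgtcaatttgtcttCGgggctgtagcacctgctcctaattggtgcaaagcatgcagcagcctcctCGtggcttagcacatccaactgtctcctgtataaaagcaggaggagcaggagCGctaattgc
Pcdh10: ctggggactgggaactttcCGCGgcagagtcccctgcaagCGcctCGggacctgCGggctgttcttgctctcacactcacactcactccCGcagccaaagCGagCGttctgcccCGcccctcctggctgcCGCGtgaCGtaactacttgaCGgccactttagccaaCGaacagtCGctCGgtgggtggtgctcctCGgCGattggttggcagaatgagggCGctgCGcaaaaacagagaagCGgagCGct
Pcdh17: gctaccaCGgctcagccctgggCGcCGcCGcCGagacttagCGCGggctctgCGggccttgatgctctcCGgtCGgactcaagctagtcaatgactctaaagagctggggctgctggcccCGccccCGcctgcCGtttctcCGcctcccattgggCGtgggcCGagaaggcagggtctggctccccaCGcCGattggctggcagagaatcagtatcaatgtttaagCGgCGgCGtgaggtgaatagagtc

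Over 27025 promoter windows of this length the median was 6 CpG. The Pcdh10 window held 22, the Pcdh17 window 21 and the Pcdh9 window 18, and 85.4%, 83.9% and 78.4% of windows held fewer. The Pcdh15 window held 6 CpG, at the median of all windows, and it contains the letters TATAAA on either strand, as 13% of windows do. Of the 9 members with a window in the table, Pcdh8 was the other one with TATAAA. Pcdh18 held 23 CpG, Pcdh19 16, Pcdh8 11, Pcdh7 7 and Pcdh20 3. These counts of letters describe the windows, and no binding or methylation was measured.

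Pcdh9 alone made up 73.6% of all Pcdh UMIs. Pcdh7 took 8.27%, Pcdh15 7.53% and Pcdh17 3.26%, while Pcdh10 took 0.673%. The 12 nonclustered genes ranged from 16 to 934610 UMIs, with a median of 12925.5. The clustered genes were far scarcer. Median UMIs per gene over all libraries were 223 for alpha, 257.5 for beta, 303.5 for gamma A, 168 for gamma B and 1657 for gamma C, and Pcdhb1 gave 1 UMI in all. At least 100 UMIs were found for 10 of 14 alpha, 20 of 22 beta, 11 of 12 gamma A, 5 of 6 gamma B, all 3 gamma C and 11 of 12 nonclustered genes.

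The level of a gene in a class is given as counts scaled to 1000000 UMIs of that class (CPM). Pcdh9, a nonclustered protocadherin of brain, was highest in oligodendrocytes, at 14915, 15989, 12238 and 11347 CPM in the 4 libraries (13622 ± 2188, SD, n = 4). In OPC it stood at 7438, 5762, 6056 and 5141 CPM, and no library of oligodendrocytes reached down to that range, nor did OPC to that of the next class. The next levels were 4058 ± 917 CPM in CA3 neurons, 3869 ± 434 in astrocytes, 3762 ± 745 in inhibitory neurons, 2971 ± 458 in granule neurons and 2280 ± 383 in CA1 neurons, and each of these neighbours overlapped over the libraries. Microglia were lowest at 1682 ± 411 CPM, overlapping CA1 neurons. In the 4 neuron classes the library of the knock-in with exercise gave the lowest Pcdh9 level of the 4 each time.

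Pcdh15, a protocadherin known as part of the tip link of hair cells, was highest in OPC, at 4368, 2673, 3561 and 3297 CPM (3475 ± 702). Inhibitory neurons followed at 706, 616, 681 and 638 CPM (660.1 ± 40.9). All OPC libraries lay above all inhibitory ones. Oligodendrocytes held 341 ± 67.9 CPM and CA1 neurons 233 ± 43.2, with overlap between them, and CA3 neurons held 90.8 ± 17.3 and granule neurons 64.3 ± 21.3. Among inhibitory neurons, those with markers of the medial ganglionic eminence held 795 ± 32.2 CPM and the Lamp5 type 761 ± 41.2, both above the caudal ganglionic eminence type at 373 ± 83.8. Every OPC nucleus had at least 1 Pcdh15 UMI, at median depths between 2505.5 and 4297 UMIs. After thinning to 1500 UMIs per nucleus the share was 99.3%, 96.4%, 97.8% and 97.0%, against 9.51%, 4.99%, 3.77% and 15.6% of astrocytes. Unthinned, 12.4%, 8.97%, 2.99% and 29.2% of astrocytes had one, at median depths between 1751 and 3132 UMIs.

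**Figure D1:**
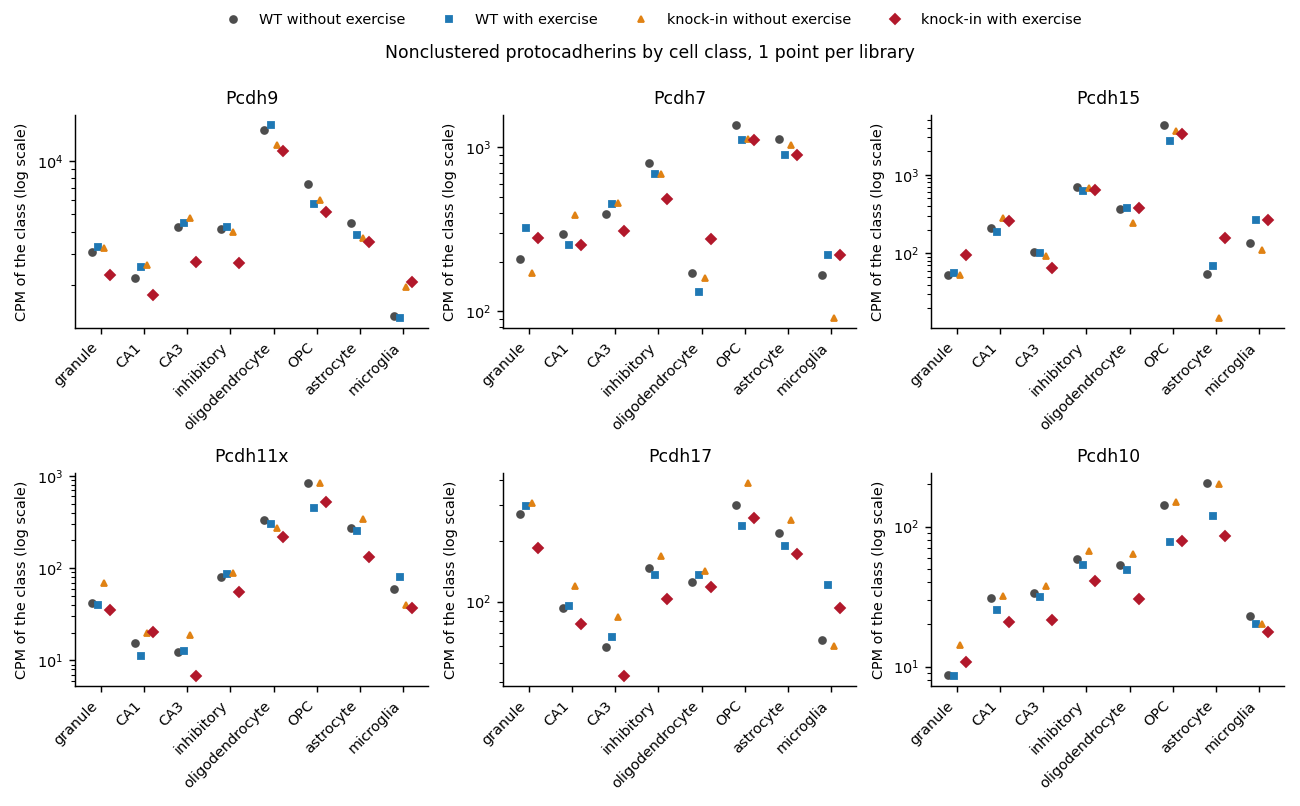
CPM of the nonclustered protocadherins by class on a log axis, with 1 point for each of the 4 libraries. Pcdh9 is highest in oligodendrocytes (11347 to 15989 CPM) and Pcdh15 in OPC (2673 to 4368 CPM), each above all libraries of the other classes compared.

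Pcdh7 was also highest in OPC, at 1374, 1098, 1127 and 1106 CPM (1176 ± 133), with astrocytes next at 987 ± 113 and overlapping. Inhibitory neurons held 663 ± 131, CA3 neurons 403 ± 69.9, CA1 neurons 298 ± 62.0, granule neurons 246 ± 68.7 and oligodendrocytes 185 ± 63.7 CPM. Within inhibitory neurons Pcdh7 stood at 833 ± 192 CPM in the medial ganglionic eminence type, against 187 ± 48.4 in the Lamp5 type, and these did not overlap. Pcdh11x, an X-linked member, held 663 ± 206 CPM in OPC, 281 ± 49.8 in oligodendrocytes and 250.4 ± 88.3 in astrocytes. In neurons it was lower, at 77.9 ± 15.7 in inhibitory, 46.8 ± 15.6 in granule, 16.8 ± 4.27 in CA1 and 12.6 ± 4.94 in CA3 neurons.

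Pcdh17, known from work on synaptic vesicles in corticobasal circuits, reached 265 ± 55.5 CPM in granule neurons and 296 ± 66.5 in OPC, which overlapped. It stood at 96.6 ± 17.5 CPM in CA1 and 63.4 ± 17.0 in CA3 neurons. Pcdh19, the X-linked gene of a childhood epilepsy that affects girls, had 130.6 ± 29.2 CPM in granule, 117 ± 12.3 in inhibitory and 104 ± 20.6 in CA1 neurons. Those 3 classes overlapped. Oligodendrocytes held 40.3 ± 5.16 CPM of it. Pcdh10, the gene for OL-protocadherin, was highest in astrocytes at 206, 120, 201 and 85.0 CPM (153 ± 60.2), then in OPC at 112 ± 39.3, and lowest in granule neurons at 10.6 ± 2.69. Pcdh8, known as arcadlin and as an activity-induced gene in the hippocampus, reached 12.6 ± 3.77 CPM in granule neurons and 4.47 ± 1.11 in CA1 neurons, and Pcdh20 held 19.1 ± 4.37 and 9.13 ± 1.04 CPM there.

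Levels of different genes were also scaled by the length of their own sequence. This was the exonic bases outside the exons of other genes on that strand, plus the intronic bases outside the spans of those genes. On that scale the long nonclustered genes were no longer far above the rest in granule neurons, where Pcdh9 held 3.39 ± 0.523 CPM per kb. Pcdh20 held 2.88 ± 0.657 CPM per kb, Pcdh17 2.78 ± 0.581 and Pcdh8 2.77 ± 0.830, all overlapping. In oligodendrocytes Pcdh9 stood at 15.5 ± 2.49 CPM per kb. Of the clustered genes, Pcdhga12 held 3.29 ± 0.626 CPM per kb in CA1 neurons, Pcdhgc4 1.85 ± 0.424, Pcdha11 (ENSMUSG00000102206) 1.52 ± 0.315 and Pcdhb17 1.25 ± 0.357. In astrocytes Pcdhgc4 held 6.83 ± 1.5 CPM per kb and Pcdhga12 5.13 ± 2.43. A count of reads with introns grows with the length of the gene, and one without introns does not, and the choice made was not given in the sources used here. The own sequence of Pcdh9 was mostly intron (870487 bases, against 6783 exonic), whereas that of Pcdhb17 and Pcdhgc4 was exon only. Exons shared at the 3′ end of the alpha and gamma genes were left out of it. Whether the order on this scale comes from the divisor alone was not tested.

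Summed over the 57 clustered genes, granule neurons held 102, 97.0, 88.8 and 131 CPM (105 ± 18.4). CA1 neurons held 115, 112, 103 and 148 CPM (119 ± 19.9), CA3 neurons 87.8 ± 15.8 and inhibitory neurons 145 ± 18.3. In each of these 4 classes the knock-in with exercise gave the highest sum and the knock-in without exercise the lowest. Glia were not lower as a whole, with 193 ± 37.2 CPM in astrocytes, 181 ± 34.8 in OPC, 116 ± 8.02 in oligodendrocytes and 105 ± 31.9 in microglia.

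The clusters were used unevenly by class. The alpha sum was 18.7 ± 1.64 CPM in CA1, 22.8 ± 1.38 in inhibitory, 16.1 ± 1.6 in granule and 14.1 ± 1.61 in CA3 neurons. In oligodendrocytes it was 5.75, 6.19, 6.24 and 6.32 CPM, below every neuronal value. In astrocytes it was 4.31, 4.25, 0 and 4.86 CPM, resting on 11 UMIs. The beta sum did not show this, at 55.7 ± 2.33 CPM in oligodendrocytes and 86.2 ± 12.9 in astrocytes against 36.8 ± 7.03 in granule, 50.4 ± 10.7 in CA1 and 71.3 ± 12.9 in inhibitory neurons. The gamma C sum was 37.7, 46.8, 52.2 and 46.2 CPM in astrocytes (45.7 ± 5.98), against 14.5 ± 4.03 in granule neurons, without overlap. It overlapped OPC, at 35.5, 22, 19.2 and 49.3 CPM on 67 UMIs, where OPC were above astrocytes in the knock-in with exercise.

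**Figure D2:**
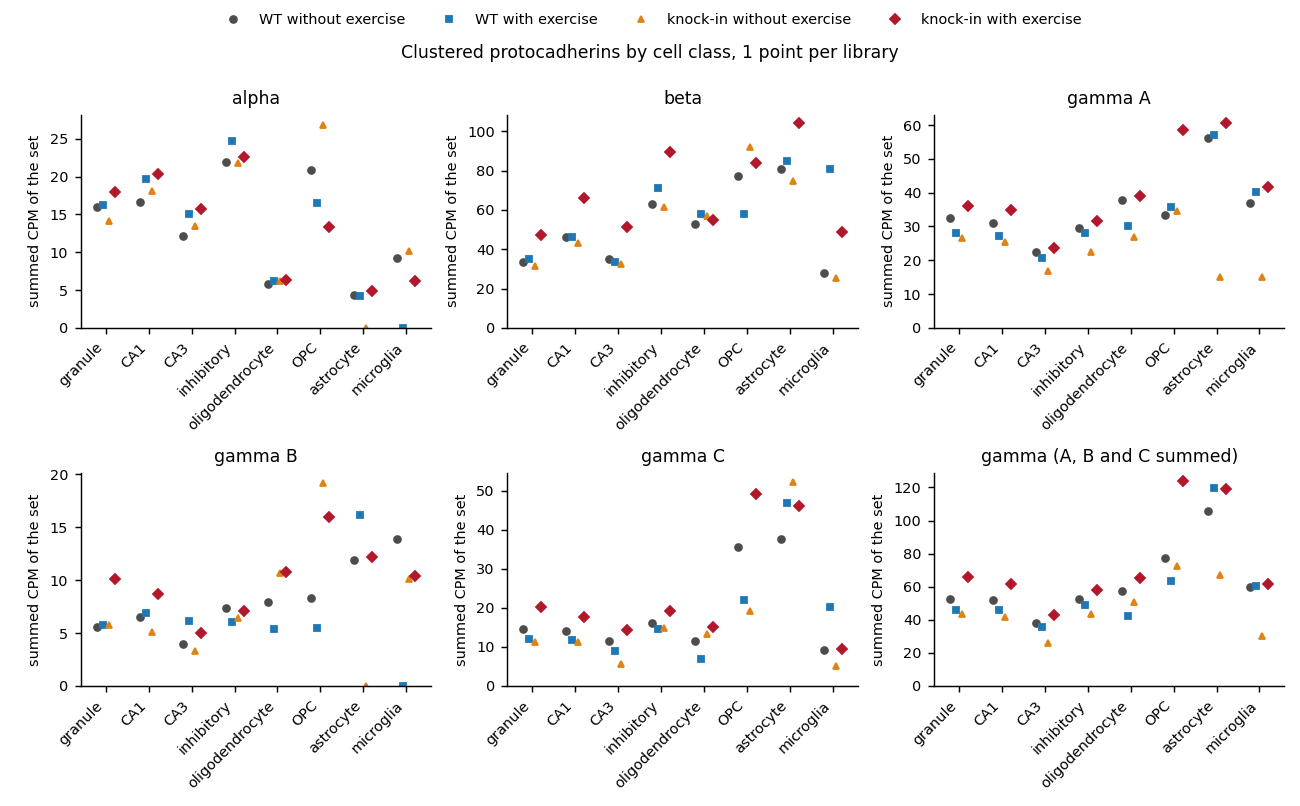
Summed CPM of the alpha, beta, gamma A, gamma B and gamma C genes by class, with 1 point for each of the 4 libraries. The alpha sum is between 5.75 and 6.32 CPM in oligodendrocytes and lies below all neuronal values, and the gamma C sum of astrocytes (37.7 to 52.2 CPM) lies above that of the neurons and overlaps that of OPC.

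Single clustered genes reached low levels. Pcdhga12 led in granule neurons at 15.8 ± 2.94 CPM and stood at 23.3 ± 11.1 in astrocytes. Pcdhgc4, a C-type gamma gene, held 19.4, 26.4, 29.8 and 19.4 CPM in astrocytes (23.8 ± 5.21). Its levels were 6.95 CPM in granule, 6.42 in CA1 and 9.84 in inhibitory neurons. Pcdhgc5 was at 13.2 ± 4.07 CPM in astrocytes and 6.84 in granule neurons. Pcdha11 (ENSMUSG00000102206) was the highest alpha entry, at 7.09 ± 1.47 CPM in CA1 neurons, 7.79 in inhibitory neurons and 1.55 in oligodendrocytes. Among beta genes, Pcdhb17, Pcdhb14, Pcdhb19 and Pcdhb16 held 10.3, 8.64, 9.54 and 7.69 CPM in inhibitory neurons, against 5.04, 3.60, 3.84 and 3.65 in granule neurons.

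Classes were compared over the 4 libraries with edgeR's quasi-likelihood test, the library as a block, and Benjamini-Hochberg adjustment over all 16365 genes tested. A gene was called at an adjusted p under 0.05 and a difference of at least 2-fold. The 4 libraries come from 4 different groups and nothing says that they are repeats of 1 condition, so these p-values measure the spread between these libraries only. Of the 69 members, 55 had enough UMIs to be tested. The same libraries enter all 7 contrasts, and classes can also carry RNA of other cells. The sum of 7 oligodendrocyte markers was between 10961 and 13462 CPM in oligodendrocytes, 403 to 482 in granule neurons, 612 to 1212 in astrocytes and 464 to 1279 in microglia. The sum of 6 granule markers was 1494 to 1722 CPM in granule neurons, 233 to 362 in oligodendrocytes and 410.3 to 766 in astrocytes. The sum of 7 astrocyte markers was 8444 to 12795 CPM in astrocytes and 957 to 1131 in granule neurons. Other lists separated less well. The sum of 6 inhibitory markers was 1732 to 2937 CPM in OPC, against 2631 to 3327 in inhibitory neurons. That of 6 CA3 markers was 1105 to 1691 CPM in astrocytes, against 1187 to 1919 in CA3 neurons. Whether these sums come from RNA of other cells was not tested. The part of such RNA in the differences below was not tested.

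Between granule and CA1 neurons, 3 of the tested members were higher in granule neurons and 4 lower, where 7.86% of all genes were called higher and 8.91% lower. Pcdh17 stood at 272, 297, 307 and 185 CPM in granule neurons against 93.3, 95.4, 120.0 and 77.6 in CA1 neurons, and was 1.38 higher on the log2 scale (SE 0.138, adjusted p = 2.48e-10). Every granule library lay above every CA1 library. Pcdh8 (16.7, 9.15, 14.8 and 9.59 against 5.36, 3.06, 5.35 and 4.11 CPM) was 1.41 higher (SE 0.181, adjusted p = 5.57e-08), and Pcdh11x was 1.37 higher (SE 0.183, adjusted p = 1.40e-07), again without overlap. Pcdh10 was at 8.71, 8.52, 14.3 and 10.8 against 31.0, 25.3, 32.1 and 20.9 CPM, a log2 difference of -1.42 (SE 0.133, adjusted p = 5.93e-11). Pcdhb14 was at 2.79, 2.89, 3.26 and 5.44 against 6.43, 7.93, 5.98 and 9.99 CPM (-1.14, SE 0.141, adjusted p = 2.63e-08). Pcdhb6 differed by -1.44 (adjusted p = 0.00227) on 33 granule UMIs. Pcdh15 differed by -1.96 (SE 0.255, adjusted p = 7.95e-08). When nuclei needed at least 1000 genes, however, the Pcdh15 difference was 0.12, and Pcdh11x was at 0.90 when at least 1200 UMIs were needed and at 0.80 with Pcdh genes allowed in the clustering. The median log2 difference of the tested beta genes was -0.47, 2 of 18 being positive, against 0.02 over all genes, and those of alpha, gamma A, gamma B and gamma C were -0.12, 0.02, -0.02 and 0.04.

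CA3 neurons had 6 members lower than CA1 neurons and none higher, where 5.93% of genes were called higher and 4.86% lower. They were Pcdh15 (-1.27, SE 0.251, adjusted p = 0.000164), Pcdhb4 (-1.72, adjusted p = 0.0187), Pcdhb3 (-1.71, adjusted p = 0.0132), Pcdhb6 (-1.42, adjusted p = 0.0193), Pcdhb7 (-1.14, adjusted p = 0.000377) and Pcdhga2 (-1.02, adjusted p = 0.0172). None overlapped between the classes, but Pcdhb3 and Pcdhb4 rested on 9 CA3 UMIs each. No call among these 6 held under all of the 13 to 15 alternatives that could be fitted for it. Pcdhb3 stood at -1.36 without WT with exercise and at -1.46 without the knock-in with exercise, Pcdhb6 at -1.25 and Pcdhb7 at -0.98 without WT without exercise, and Pcdh15 at 1.27 with at least 1000 genes a nucleus and -0.29 with no doublets left out. The median differences were -0.42 for alpha, -0.42 for beta, -0.56 for gamma A with 0 of 11 positive, -0.46 for gamma B and -0.42 for gamma C, against -0.02 over all genes.

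Inhibitory neurons were set against the mean of granule, CA1 and CA3 neurons. There 6 members were higher and 2 lower, where 10.3% of genes were called higher and 8.68% lower. Pcdh15 held 706, 616, 681 and 638 CPM against 122, 114, 142 and 140.0 in excitatory neurons, a difference of 2.42 (SE 0.183, adjusted p = 2.07e-13). Pcdh10 held 58.4, 53.3, 66.5 and 41.1 against 24.4, 21.7, 27.9 and 17.8 CPM (1.23, SE 0.103, adjusted p = 2.20e-12). Pcdh11x was 1.71 higher (adjusted p = 1.96e-12) and Pcdhb3 1.53 higher (adjusted p = 0.000400). These 4 did not overlap, but Pcdh11x fell below 2-fold with at least 1200 UMIs (0.91), with no doublets left out (0.93) and with Pcdh genes allowed in the clustering (0.88). Pcdh20 was lower, at 5.34, 5.88, 7.57 and 3.69 against 16, 14.6, 16.6 and 11.1 CPM (-1.48, SE 0.151, adjusted p = 3.04e-10). Pcdh1 differed by -1.01 and fell below 2-fold under 14 of the 15 alternatives. Pcdha1 (1.05, adjusted p = 0.00487) overlapped and was at 0.77 without WT without exercise. The beta median was 0.66, with 17 of 18 positive, against 0.27 for alpha and -0.02 over all genes.

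**Figure D3:**
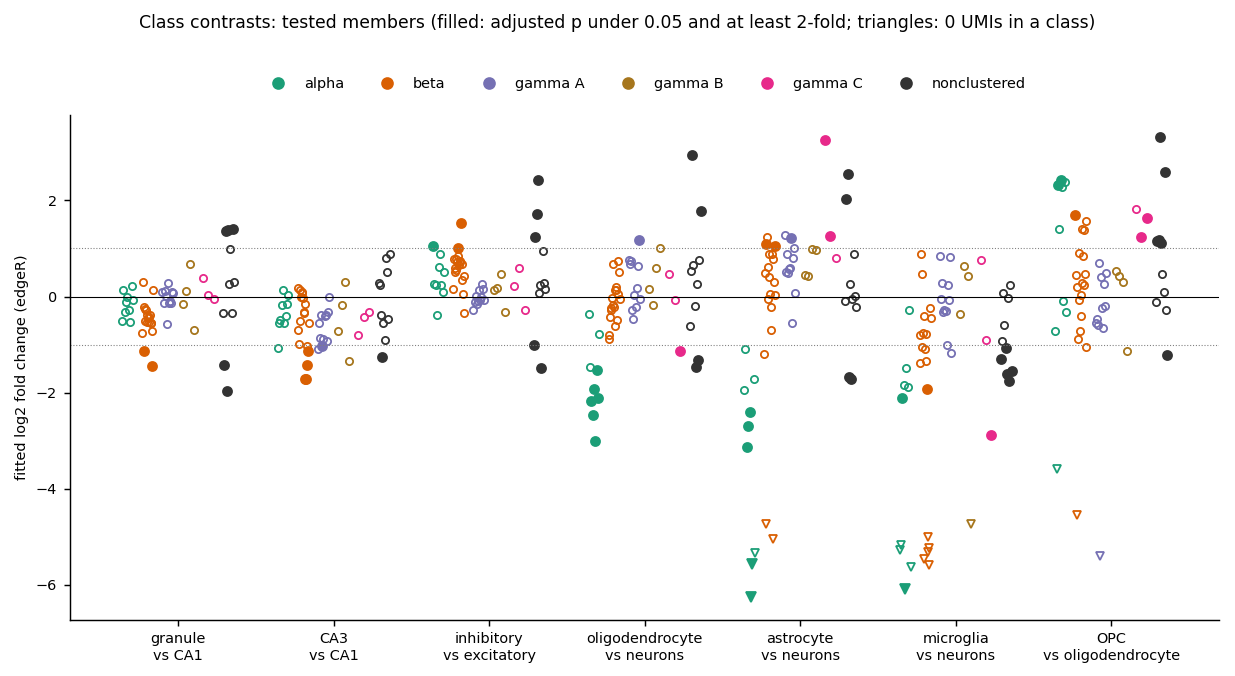
Log2 difference of each tested protocadherin in the class contrasts, by set, from the fit over 4 libraries, with triangles for members at 0 UMIs in a class, whose fitted difference is no bound. The alpha genes lie below 0 in oligodendrocytes against neurons (median -1.93) and the gamma C genes above 0 in astrocytes (median 1.26).

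Oligodendrocytes had 3 members higher and 9 lower than the 4 neuron classes, where 14.7% of genes were called higher and 21% lower. Pcdh9 was higher in every library, at 11347 to 15989 against 3414, 3643, 3653 and 2361 CPM (1.79, SE 0.168, adjusted p = 2.44e-11), and Pcdh11x at 216 to 332 against 37.7, 37.4, 49.6 and 29.3 CPM (2.95, SE 0.126, adjusted p = 1.42e-20). Of the 9 alpha genes tested, 6 were lower and none was positive, with a median of -1.93 against -0.13 over all genes, the beta median being -0.12 with no call. Pcdha11 (ENSMUSG00000102206) was at 1.08, 2.32, 0 and 2.81 CPM against 7.0, 8.11, 4.36 and 6.2 (-2.17, SE 0.289, adjusted p = 5.37e-08). With no doublets left out, however, it was at -0.84, Pcdha12 at -0.90 and Pcdha8 at -0.72, and these 3 were not called. The other 5 rested on 2 to 6 oligodendrocyte UMIs. Pcdha5 with 2 UMIs had a plain log2 ratio of -2.91 (95% interval -5.97 to -1.05), and Pcdha9 with 3 one of -1.92 (-4.21 to -0.35), and Pcdha9 was at -1.29 and not called without the knock-in with exercise. Pcdh19 was lower (-1.47, SE 0.175, adjusted p = 4.76e-09), as was Pcdh7 (-1.31, SE 0.209, adjusted p = 1.42e-06), although without WT with exercise Pcdh7 stood at -1.0. With no doublets left out Pcdh19 was at -0.93 and Pcdh7 at -0.50, and with at least 1000 genes a nucleus Pcdh7 was at -0.76, so these calls were lost. Pcdhgc5 (-1.13, adjusted p = 0.000290) overlapped, and was at -0.80, -0.92 and -0.95 without WT without exercise, WT with exercise or the knock-in with exercise. Pcdhga8 (1.17, adjusted p = 0.00999) also overlapped, and with no doublets left out it stood at 0.77 and Pcdhgc5 at -0.31, neither called.

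Astrocytes had 7 members higher and 7 lower than neurons, where 17.8% of genes were called higher and 15.1% lower. Pcdh10 was at 206, 120, 201 and 85.0 CPM against 32.9, 29.6, 37.6 and 23.6 (2.02, SE 0.137, adjusted p = 1.21e-14), and Pcdh11x was 2.56 higher (SE 0.159, adjusted p = 1.21e-15). Pcdhgc3, which has been linked to signalling through Axin1, was at 4.31, 5.95, 14.9 and 9.72 CPM against 0.437, 0.556, 0.274 and 0.690, on 17 astrocyte UMIs (3.26, SE 0.514, adjusted p = 1.75e-06). Pcdhgc4 was at 19.4 to 29.8 against 7.17, 6.42, 5.03 and 9.21 CPM (1.26, SE 0.208, adjusted p = 3.77e-06). None of these 4 overlapped. Pcdhb14 (1.09, adjusted p = 4.23e-05) was at 0.96 without WT without exercise, and Pcdhb7 (1.06, adjusted p = 0.00993) at 0.91 without that library, 0.90 without the knock-in without exercise and 0.68 with no doublets left out. Pcdhga5 (1.21, adjusted p = 0.0193) was called on 14 UMIs. Without WT without exercise or WT with exercise it stood at 1.25 and 1.22, with adjusted p = 0.052 and 0.15.

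Pcdh19 was lower in astrocytes (-1.72, SE 0.248, adjusted p = 3.60e-07), as was Pcdh15 (-1.68, SE 0.265, adjusted p = 1.81e-06). With no doublets left out they stood at -0.91 and -0.51, and both calls were lost. Of the 9 alpha genes tested, 5 were lower, each on 3 UMIs or fewer. Pcdha11 (ENSMUSG00000102206) with 3 UMIs had a plain log2 ratio of -2.5 (95% interval -4.78 to -0.95). Pcdha12 and Pcdha4 had 1 UMI each, with ratios of -2.34 (-7.64 to 0.15) and -2.00 (-7.31 to 0.49). Pcdha5 and Pcdha8 had none, which against a floor of 3 UMIs over the 4 libraries makes them at least 1.35-fold and at least 1.05-fold lower. Without WT with exercise Pcdha5, Pcdha8 and Pcdha12 were not called, Pcdha12 then standing at -1.62. The alpha median was -2.70, or -1.72 with the 3 genes at 0 UMIs set to their bound, against -0.12 over all genes. The gamma C median was 1.26 with 2 of 3 called, gamma A 0.59, gamma B 0.70 and beta 0.36.

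Microglia had 9 members lower than neurons and none higher, where 11.7% of genes were called higher and 16% lower. Pcdh9 was at 1349, 1311, 1971 and 2098 CPM, below the mean of the 4 neuron classes in each library (-1.56, SE 0.213, adjusted p = 2.19e-07), and Pcdh7 differed by -1.76, Pcdh19 by -1.62, Pcdh1 by -1.30 and Pcdh17 by -1.08. The other 4 were clustered genes with 3 UMIs or fewer in microglia. None of the 9 calls held under all of the 14 or 15 alternatives fitted for it, and with no doublets left out Pcdh9 was at 0.04, so that its direction turned.

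OPC had 10 members higher and 1 lower than oligodendrocytes, where 10.8% of genes were called higher and 9.26% lower. Pcdh15 was at 2673 to 4368 against 364, 378, 240 and 382 CPM (3.31, SE 0.270, adjusted p = 2.99e-12), and Pcdh7 at 1098 to 1374 against 131 to 277 CPM (2.59, SE 0.256, adjusted p = 2.87e-10). Pcdh11x was 1.17, Pcdh10 1.16 and Pcdh17 1.11 higher, without overlap, and Pcdh9 differed by -1.21 (SE 0.239, adjusted p = 0.000113). With no doublets left out Pcdh10, Pcdh17 and Pcdh9 were at 0.94, 0.89 and -0.95, below 2-fold, and with at least 1000 genes a nucleus Pcdh17 was at 0.90. Pcdha11 (ENSMUSG00000102206) was at 14.6, 8.26, 7.67 and 6.66 CPM in OPC (2.33, SE 0.514, adjusted p = 0.000483), and at 0.82 with no doublets left out.

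Proteins that act with protocadherins were taken as 3 lists. The first held 11 genes for CTCF and cohesin, which loop the clustered promoters to their enhancers, and for silencing factors at these promoters. None was called between the neuron classes or between OPC and oligodendrocytes. In oligodendrocytes 1 was higher than in neurons (Smc1a, 1.09), in astrocytes 1 (Dnmt3b, 1.45) and in microglia 2 (Dnmt3b, 1.81, and Smc1a, 1.02), where 14.7%, 17.8% and 11.7% of all genes were. Dnmt3b was scarce and overlapped, at 0 to 7.29 CPM in astrocytes and 0 to 40.3 in microglia against 1.11 to 2.33 in neurons. It was higher in 3 of the 4 libraries in each of these classes. Of 7 genes of the WAVE complex, an actin regulator that binds the tails of several protocadherins, Wasf1 was lower in inhibitory than in excitatory neurons, at 82.9 to 95.5 against 264 to 327 CPM (-1.89, adjusted p = 1.13e-12), where 8.68% of all genes were. In oligodendrocytes 3 of the 7 were lower than in neurons (Cyfip2, -1.93, Cyfip1, -1.33, and Wasf1, -1.19), where 21% of all genes were, in astrocytes 2, where 15.1% were, and in microglia 4, where 16% were. Of 8 kinases and signalling partners tested, 1 was lower in inhibitory neurons, where 8.68% of all genes were. This was Ptk2b, a kinase held in check by clustered protocadherins, at 39.7 to 101 against 317 to 591 CPM (-2.89). Pak1 was higher in oligodendrocytes at 555 to 821 against 65.5 to 69.8 CPM (3.05, adjusted p = 8.34e-26). Ptk2b (-2.01) and Fyn (-1.17) were lower there, against 14.7% of genes higher and 21% lower. In astrocytes 1 was higher and 1 lower, against 17.8% and 15.1%. In microglia 2 were higher (Marcks at 3.81) and 2 lower, against 11.7% and 16%. Between OPC and oligodendrocytes 2 were higher and 2 lower, against 10.8% and 9.26%. The median differences of the 3 lists were 0.32, -0.83 and 0.01 in oligodendrocytes against neurons, where that of all genes was -0.13.

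The number of distinct clustered genes seen in 1 nucleus was counted with all UMIs and at equal depth. With all UMIs, 14.5%, 15.1%, 7.88% and 23.1% of granule nuclei showed at least 2 clustered genes, at median depths of 6200, 6742, 4591 and 6745 UMIs. In CA1 neurons the shares were 25.4%, 32.1%, 17.4% and 38.6%. After thinning to 1500 UMIs they were 1.12%, 1.24%, 0.941% and 1.98% of granule nuclei. The exact 95% binomial interval was 1.49% to 2.57% for the knock-in with exercise and 0.604% to 1.40% for the knock-in without, and these intervals and all others cover counting error only. In CA1 neurons the thinned shares were 1.56%, 1.01%, 0.831% and 3.11%, in astrocytes 3.37%, 6.45%, 3.77% and 4.59%. The largest number in 1 granule nucleus was 13. Of granule nuclei with at least 2 clustered UMIs, 93.5% of 474, 95.8% of 308, 94.8% of 213 and 94.9% of 668 showed at least 2 different genes. Pcdhga12, the most counted clustered gene, gave 3889 of the 29116 clustered UMIs. UMIs drawn at random from that pool would thus mostly be of different genes too. No comparison with such draws was made, so these shares do not show how many genes a nucleus uses. At this depth the full set used by a nucleus was not detectable.

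**Figure D4:**
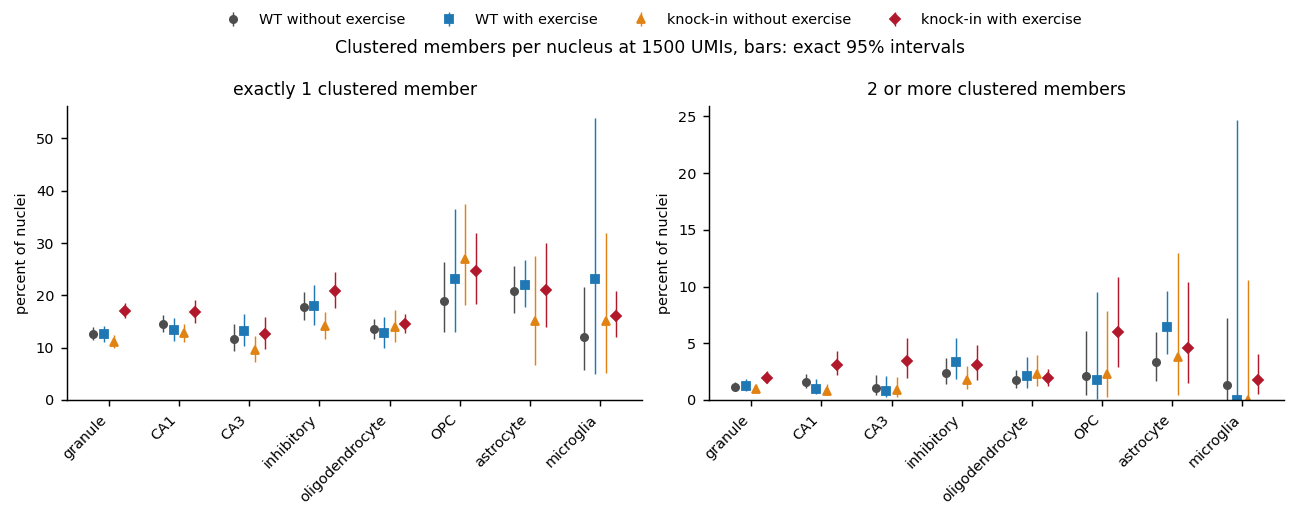
Share of nuclei (percent) with exactly 1 and with at least 2 distinct clustered protocadherins by class and group, after thinning to 1500 UMIs a nucleus. Bars are exact 95% binomial intervals. The granule shares with at least 2 lie between 0.941% and 1.98%.

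Between the groups each ratio sets 1 library against another, so there is no replicate check and no test. Ratios are log2 of CPM with an exact conditional binomial 95% interval. The comparisons share libraries. The ratio for exercise in the knock-in shares the knock-in with exercise with the genotype ratio under exercise, and the knock-in without exercise with the genotype ratio without it. Exercise in WT likewise shares a WT library with each genotype ratio. Each class was spread differently over clusters in the libraries. Granule neurons lay in cluster 6 at 74.3%, 81.9%, 31.8% and 5.14%, with cluster 8 holding 68.2% of the knock-in without exercise and cluster 7 93.4% of the knock-in with exercise. CA1 neurons lay in clusters 10 and 16, with 75.4%, 80.6%, 78.2% and 53.6% in the former. CA3 neurons were 1 cluster, and inhibitory neurons 3 at near the same shares. The sum of 6 CA3 markers in CA3 neurons was, however, 1919, 1809, 1852 and 1187 CPM, lowest in the knock-in with exercise. That of 6 inhibitory markers in inhibitory neurons was 3327, 3096.5, 2867 and 2631 CPM. In the knock-in with exercise CA1 markers in CA1 neurons were instead highest of the 4 libraries, at 1174 CPM. Granule markers in granule neurons were at 1634 CPM there, within the range of the others. Oligodendrocytes were mostly in cluster 1 in both WT libraries, cluster 14 in the knock-in without exercise and cluster 2 in the knock-in with exercise. Malat1, a nuclear RNA, took 3.19%, 6.07%, 9.15% and 2.78% of granule UMIs, and genes over 100 kb long took 61.7%, 62.0%, 56.1% and 60.3%. The part of these in the ratios below was not tested.

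With exercise in the knock-in, the clustered sum was higher and the nonclustered sum lower in all 4 neuron classes. The clustered ratio was 0.56 (0.46 to 0.66) in granule, 0.53 (0.42 to 0.64) in CA1, 0.61 (0.44 to 0.77) in CA3 and 0.42 (0.28 to 0.56) in inhibitory neurons, whereas in oligodendrocytes the interval held 0 (0.15, -0.07 to 0.37). The nonclustered ratio was -0.41, -0.50, -0.77 and -0.50 in the neuron classes and -0.08 in oligodendrocytes. Pcdh9 made up most of the nonclustered sum (934610 of 1239909 UMIs over all nuclei). Of the nonclustered members with at least 100 UMIs over both libraries, 3 of 10, 2 of 10, 1 of 9 and 1 of 8 had a ratio above 0 in the neuron classes. The median of all genes in this comparison lay at 0.10, 0.16, 0.22 and 0.15 in the 4 neuron classes. Under 3 other scalings the clustered ratio stayed above 0 (0.43 to 0.52 in granule, 0.37 to 0.44 in CA1, 0.42 to 0.46 in CA3 and 0.29 to 0.34 in inhibitory neurons) and the nonclustered ratio below it. By cluster, the beta ratio was 0.59, 0.62, 0.64 and 0.54 and the gamma ratio 0.61, 0.57, 0.73 and 0.40, whereas the alpha ratio was 0.35 in granule neurons and its interval held 0 in the other 3 classes (0.17, 0.23 and 0.05). Over all genes of granule neurons, the ratio differed by gene length, with medians of -0.29, 0.10, 0.20 and 0.22 from the shortest to the longest of 4 length classes. In CA1 neurons these medians were -0.08, 0.21, 0.23 and 0.18, and in CA3 neurons 0.13, 0.31, 0.26 and 0.17. Inhibitory neurons gave -0.06, 0.17, 0.21 and 0.21. Gene length was looked at after the group ratios were seen.

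Under exercise, the knock-in against WT gave clustered ratios of 0.44 (0.34 to 0.53) in granule, 0.41 (0.30 to 0.52) in CA1, 0.39 (0.24 to 0.53) in CA3 and 0.24 (0.10 to 0.38) in inhibitory neurons, where the medians of all genes were 0.20, 0.28, 0.25 and 0.24. Under the other scalings these shrank to 0.26 to 0.33, 0.15 to 0.28, 0.17 to 0.27 and 0.03 to 0.13. The nonclustered ratios were -0.46, -0.36, -0.69 and -0.55. Without exercise the clustered ratios were -0.20 (-0.31 to -0.10), -0.16 (-0.27 to -0.05), -0.24 (-0.41 to -0.08) and -0.12 (-0.26 to 0.03), against all-gene medians of -0.05, -0.08, -0.16 and -0.06, and the nonclustered ones 0.05, 0.25, 0.17 and -0.06. That last value changed sign among the scalings (-0.09 to 0.02). Here the gamma sum was lower in each neuron class (-0.28, -0.32, -0.55 and -0.27), while alpha and beta intervals held 0. In WT, exercise gave clustered ratios of -0.08, -0.04, -0.02 and 0.07, whose intervals all held 0 and whose sign in granule, CA1 and CA3 neurons turned under other scalings.

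**Figure D5:**
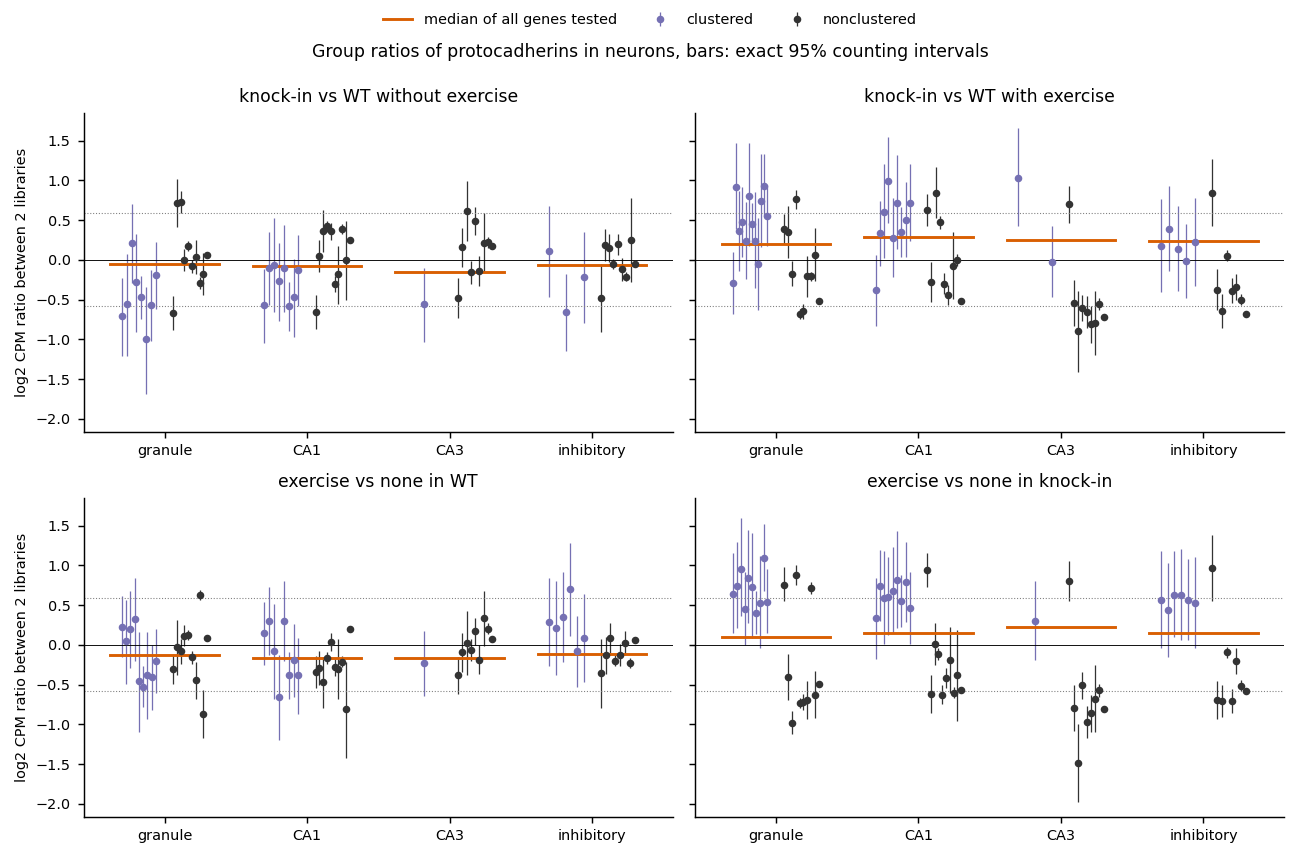
Log2 ratio of CPM between libraries for each clustered and nonclustered protocadherin with at least 100 UMIs over both libraries, in the 4 neuron classes. Bars are exact 95% intervals for counting error, and lines give the median of all genes tested, in the 4 group comparisons. For exercise in the knock-in the clustered members shown had a median of 0.69 in granule and 0.61 in CA1 neurons. The nonclustered members had medians of -0.56 and -0.40 there. A scarce clustered member can pass the minimum of 100 UMIs through the library where it is high. The ratios of the clustered sum were lower than the clustered medians.

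For single members, a ratio past 1.5-fold was noted where at least 100 UMIs were present over both libraries, and each count stands beside the share of all genes past that fold in the same direction. With exercise in the knock-in, 9 members were higher and 5 lower of 20 in granule neurons, where 22% of genes were higher and 17.9% lower. In CA1 neurons 7 were higher and 3 lower of 19, against 26.0% and 15% of genes, and in inhibitory neurons 3 and 4 of 14, against 23.5% and 13.7%. In CA3 neurons 1 was higher and 6 were lower of 10, against 28.4% and 12.1% of genes. In oligodendrocytes 2 were higher and 1 lower of 8, against 24.4% and 20%. In microglia 3 were higher and 0 lower of 4, against 29.6% and 12%. In OPC 0 were higher and 1 lower of 5, against 23.8% and 7.02%, and in astrocytes 0 and 1 of 4, against 37.3% and 8.27%. The clustered members counted in the neuron classes lay above the median of all genes in 10 of 10, 9 of 9, 1 of 1 and 6 of 6 cases, and the nonclustered in 3 of 10, 1 of 10, 1 of 9 and 1 of 8. A scarce clustered gene can pass the minimum of 100 UMIs through the library where it is high. All members also share the same pair of libraries, so this tally adds no support to the ratio of the sum.

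In granule neurons the largest was Pcdhgc4, at 10.3 CPM on 207 UMIs with exercise and 4.85 CPM on 61 UMIs without it, a ratio of 1.09 (0.67 to 1.53). Pcdhb16 was at 0.96, Pcdh15 at 0.88, Pcdhb19 at 0.84 and Pcdh1 at 0.76. Lower values were -0.98 for Pcdh11x, -0.73 for Pcdh17, -0.72 for Pcdh19, -0.69 for Pcdh20 and -0.63 for Pcdh8. In CA1 neurons Pcdh1, a protocadherin also found in epithelium, was at 44.7 against 23.3 CPM (0.94, 0.73 to 1.16), Pcdhb7 at 0.81, Pcdhgc4 at 0.79, Pcdhb14 at 0.74 and Pcdhb19 at 0.68, while Pcdh17, Pcdh10 and Pcdh7 stood at -0.63, -0.62 and -0.60.

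In CA3 neurons Pcdh11x stood at -1.48 (-1.98 to -1.0, 50 against 130 UMIs) and Pcdh17 at -0.97. Pcdh9 was at 2722 against 4782 CPM (-0.81, -0.84 to -0.79), and Pcdh1 at 0.80. In inhibitory neurons Pcdh1 was at 0.96, Pcdhb17 at 0.63 and Pcdhb19 at 0.62, and Pcdh17, Pcdh11x and Pcdh10 were at -0.71, -0.71 and -0.70. Pcdh9 was at -0.59 there and at -0.49 in granule and -0.56 in CA1 neurons. Outside neurons, Pcdh10 was at -1.07, Pcdh7 at 0.79 and Pcdh15 at 0.67 in oligodendrocytes, and the last 2 turned sign (-0.24 and -0.05) with no doublets left out. Pcdh11x was at -0.69 in OPC and -1.39 in astrocytes. Pcdh7 was at 1.27, Pcdh15 at 1.24 and Pcdh17 at 0.61 in microglia, where the interval of Pcdh17 held 0 and the other pair turned sign under 3 alternative sets of nuclei.

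For the knock-in against WT under exercise, 5 members were higher and 2 lower of 22 in granule neurons, where 20.8% of genes were higher and 6.72% lower. The counts were 6 and 0 of 18 in CA1 neurons against 27.3% and 4.49% of genes, 2 and 6 of 11 in CA3 neurons against 24.3% and 4.21%, and 1 and 2 of 13 in inhibitory neurons against 22.9% and 3.79%. They were 2 and 1 of 8 in oligodendrocytes against 20.2% and 9.49%, 1 and 1 of 6 in astrocytes against 13.9% and 11.1%, and 1 and 0 of 3 in microglia against 29.5% and 16%. In granule neurons Pcdhgc4 was at 0.93, Pcdhb14 at 0.92, Pcdhb7 at 0.81, Pcdh15 at 0.76 and Pcdhgb4 at 0.74, with Pcdh17 at -0.68 and Pcdh19 at -0.65. In CA1 neurons the highest were Pcdhb17 at 0.99 and Pcdh11x at 0.84. In CA3 neurons Pcdhb17 was at 1.04 and Pcdh1 at 0.70, with Pcdh11x at -0.89, Pcdh19 at -0.81, Pcdh20 at -0.79, Pcdh9 at -0.72 and Pcdh17 at -0.65. In inhibitory neurons Pcdh1 was at 0.84, Pcdh9 at -0.69 and Pcdh11x at -0.64. In oligodendrocytes Pcdh7 was at 1.08, Pcdh1 at 0.84 and Pcdh10 at -0.69, and in astrocytes Pcdh15 was at 1.18 and Pcdh11x at -0.95. With no doublets left out the oligodendrocyte value of Pcdh7 was -0.013 and the astrocyte value of Pcdh15 -0.61, both of the other sign. Pcdh9 in microglia was at 0.68 and turned sign under 4 alternative sets of nuclei.

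For the knock-in against WT without exercise, 2 members were higher and 3 lower of 18 in granule neurons, where 11.6% of genes were higher and 6.61% lower. They were Pcdh11x at 0.73 (0.59 to 0.86) and Pcdh10 at 0.72, and Pcdhga9 at -0.99 (-1.69 to -0.34) on 26 and 84 UMIs, Pcdha11 (ENSMUSG00000102206) at -0.71 on 49 and 130 UMIs and Pcdh1 at -0.67. In CA1 neurons 0 were higher and 1 lower of 18 (Pcdh1 at -0.66), against 11% and 10.3% of genes. In CA3 neurons 1 was higher of 10 (Pcdh11x at 0.61) and 0 lower, against 8.56% and 15.6%. In inhibitory neurons 0 were higher and 1 lower of 12 (Pcdhga12 at -0.66), against 10.6% and 7.06%, and in oligodendrocytes 0 and 1 of 8 (Pcdh15 at -0.60), against 12.7% and 13.4%. The Pcdha11 value and the CA3 value of Pcdh11x turned sign when nuclei were thinned to 1500 UMIs (0.38 and -0.38).

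With exercise in WT, 1 member was higher and 1 lower of 19 in granule neurons, where 1.24% of genes were higher and 5.45% lower. Pcdh7 was at 323 against 209 CPM (0.63, 0.57 to 0.69), and Pcdh8 at 9.15 against 16.7 CPM on 130 and 341 UMIs (-0.87, -1.17 to -0.57). In CA1 neurons 0 were higher and 2 lower of 18, against 0.768% and 8.61% of genes, with Pcdh8 at -0.81 (-1.42 to -0.22) on 34 and 85 UMIs and Pcdhb17 at -0.65. The CA1 value of Pcdh8 was 0.0006 when nuclei were thinned. No member of 10 passed in CA3 neurons, against 1.23% of genes higher and 9.38% lower. In inhibitory neurons 1 of 14 was higher, Pcdhb19 at 0.70 (0.12 to 1.29), and 0 lower, against 0.929% and 6.27%. In OPC 0 were higher and 2 lower of 5, Pcdh11x at -0.90 and Pcdh15 at -0.71, against 13.4% and 16.8%. In astrocytes 0 were higher and 1 lower of 6, Pcdh10 at -0.78, against 9.6% and 5.37%.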

How the data were processed

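The deposited values are whole counts of UMIs per gene and barcode, made by the authors with Cell Ranger 5.0.1 per the file headers and 3.1.0 per the submitters' processing notes (build mm10). Intron and strand settings were not given in the sources used here. Gene models came from GENCODE M21 (32235 of 32285 identifiers matched) and promoter windows from RefSeq (9 members matched).

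Nuclei with at least 500 genes, 1000 UMIs and at most 5% mitochondrial UMIs were kept. Doublets were left out at 0.8% per 1000 nuclei by score against simulated pairs (8.98%, 5.51%, 8.07% and 7.57% of nuclei), and 59.5%, 40.5%, 51.7% and 53.2% of simulated pairs were caught, so some doublets remained. Clustering used 2000 variable genes without Pcdh genes, 30 components, 15 neighbours and Leiden resolution 1.0 (scanpy 1.11.5, igraph 0.11.9, Python 3.11.15), without integration. Clusters were named from 27 marker lists with at least 3 markers shown, and 4167 nuclei stayed unnamed.

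UMIs were summed per library and class. Classes were compared with edgeR 4.0.16 (quasi-likelihood, TMM, library block, R 4.3.3) over genes with at least 100 UMIs in the class sums. Between groups there was 1 library each, so ratios carry exact 95% intervals for counting error and no test. The scripts were tested on simulated data. Alternatives were stricter filters on nuclei, doublets kept, other clusterings, thinning to 1500 UMIs, other scalings, other UMI minimums, DESeq2 1.42.0, no block and each library left out.

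All members were counted. Named members were, in each set, up to 6 with the highest mean CPM, in each contrast up to 4 called in each direction, and in each group ratio up to 5 in each direction past 1.5-fold with an interval that leaves out 0, with some further members chosen after their values were seen. Members, lists and rules were chosen with earlier results of these data known.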

Additional observations from a re-analysis of the deposited data

Results flagged for a closer look

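The genotype ratio of the clustered sum had opposite signs without and with exercise. Knock-in against WT, it was -0.20 (log2) without and 0.44 with exercise in granule neurons, -0.16 and 0.41 in CA1 neurons and -0.24 and 0.39 in CA3 neurons. The median of all genes tested changed sign in the same direction. It was -0.05 and 0.20 in granule, -0.08 and 0.28 in CA1 and -0.16 and 0.25 in CA3 neurons. Under other scalings the clustered ratios with exercise shrank. In those 3 classes the nonclustered sum went the other way, at 0.05 without and -0.46 with exercise in granule neurons, 0.25 and -0.36 in CA1 neurons and 0.17 and -0.69 in CA3 neurons, whereas in inhibitory neurons it kept its sign, at -0.06 and -0.55. The clustered ratios of inhibitory neurons were -0.12, with an interval that held 0, and 0.24. Pcdh9 made up most of the nonclustered sum over all nuclei.

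The exercise ratio of the nonclustered sum likewise differed in sign between WT and knock-in in 4 classes. It was 0.11 in WT and -0.41 in the knock-in in granule neurons, 0.10 and -0.50 in CA1 neurons, 0.08 and -0.77 in CA3 neurons and 0.09 and -0.08 in oligodendrocytes. In inhibitory neurons it was -0.015, with an interval that held 0, and -0.50. Each of these sets 1 library against another, all of them share libraries, and the differences between the ratios were not tested. The library of the knock-in with exercise enters 1 side of each pair. Both knock-in libraries stood apart in the clusters of their granule neurons and oligodendrocytes.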

How the results depend on the processing

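No paired analysis was possible because each group has 1 library. The counts of members called moved as follows. For CA3 against CA1 neurons (6) they were 10 with at least 1000 genes a nucleus, 2 with thinning to 1500 UMIs, 3 without the library block and 2 to 6 with 1 library left out. For inhibitory neurons (8) they were 5 with at least 1200 UMIs, with no doublets left out, with a larger set of variable genes and with thinning, and 5 to 10 with 1 library left out. For oligodendrocytes (12) they were 6 with no doublets left out and 6 with thinning, and 10 to 12 with 1 library left out. For astrocytes (14) they were 9 to 12 with 1 library left out. For microglia (9) they were 1 with at least 1000 genes, 5 with at least 1200 UMIs, 2 with no doublets left out, 5 with thinning and 5 to 7 with 1 library left out. For OPC (11) they were 7 with thinning and 9 to 11 with 1 library left out. Members past 1.5-fold in the 4 neuron classes numbered 1 with thinning, 17 at 50 UMIs and 5 at 200 UMIs for genotype without exercise (8). They numbered 9, 37 and 15 for genotype with exercise (24), 2, 10 and 2 for exercise in WT (5, and 8 with no doublets left out) and 13, 64 and 23 for exercise in the knock-in (38). Clustered ratios for genotype without exercise were -0.27 with thinning and -0.049 without the 50 highest genes in CA1 neurons and -0.33 with thinning in inhibitory neurons. For genotype with exercise they were, under TMM, median-of-ratios and no 50 highest genes, 0.26, 0.27 and 0.33 in granule and 0.17, 0.15 and 0.28 in CA1 neurons (0.59 with thinning), and under the first 2 of these 0.18 and 0.17 in CA3 and 0.073 and 0.028 in inhibitory neurons. For exercise in WT they were 0.025 and 0.045 in granule and 0.10 and 0.13 in CA1 neurons under the same 2 (-0.18 with thinning), and 0.14 under median-of-ratios in CA3 neurons. For exercise in the knock-in they were, with thinning, 0.71, 0.68, 0.80 and 0.61 in granule, CA1, CA3 and inhibitory neurons, 0.43, 0.37 and 0.42 without the 50 highest genes in the first 3, and 0.42 and 0.44 under median-of-ratios in CA1 and CA3 neurons. Signs turned for Pcdh15 with at least 1000 genes (0.12 granule against CA1, 1.27 CA3 against CA1). With thinning they turned for genotype without exercise in Pcdha11 (ENSMUSG00000102206; granule, 0.38) and Pcdh11x (CA3, -0.38) and for exercise in WT in Pcdh8 (CA1, 0.0006). With no doublets left out they turned for genotype with exercise in Pcdh7 (oligodendrocytes, -0.013) and Pcdh15 (astrocytes, -0.61), and for exercise in the knock-in in Pcdh7 (-0.24) and Pcdh15 (-0.047) of oligodendrocytes. In microglia, under the minimum of 1000 genes, that of 1200 UMIs and all doublets kept in turn, Pcdh9 was at -1.03, -0.85 and -0.71 for genotype with exercise (-0.23 with a larger set of variable genes), and for exercise in the knock-in Pcdh7 was at -0.72, -0.40 and -0.72 and Pcdh15 at -0.26, -0.26 and -0.87. The cause was not tested.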

Other observations

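Outside the classes compared, 2 rare members were found mostly in 1 unnamed cluster of 419 nuclei that showed markers of several classes, among them Flt1, Cldn5 and Pecam1 of endothelium. Pcdh18 was at 34.4, 41.3, 12.9 and 44.6 CPM there, on 76 of its 149 UMIs in all. Pcdh12, a protocadherin of endothelial cells, was at 4.85 ± 2.38 CPM (SD, n = 4) there, on 10 of its 16 UMIs. Pcdh1 was also high in it, at 93.2, 79.5, 79.7 and 74.3 CPM, against 42.3 in astrocytes and 38.6 in CA3 neurons. The clustered sum there was 161 ± 39.4 CPM.

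Pcdh7 was highest of all in 60 committed oligodendrocyte precursors, at 3635, 4399, 3492 and 2272 CPM on 225, 76, 209 and 354 UMIs. These values rest on 16, 4, 15 and 25 nuclei and lie above every OPC and oligodendrocyte library. Pcdh9 was at 3005, 3009.6, 3325 and 2298 CPM in them, below both OPC and oligodendrocytes. Pcdh15 reached 1535, 1495, 1463 and 1352 CPM in an unnamed cluster of 835 nuclei led by Tshz2, and 971 ± 107 CPM in subicular neurons, both above the inhibitory neurons.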
